A study of Mus musculus with 2 samples.

Results

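Imprinted genes, which are expressed mainly from the copy inherited from 1 parent, were examined in mouse chondrocytes with and without Cre recombinase. A list of 41 imprinted genes was used, of which 38 were present by symbol among the 13138 genes of the deposited table and 37 passed a minimum mean of 50 normalised counts (5.64 on the log2 scale). Slc22a18 was present below that minimum. Nap1l5, Phlda2 and Snrpn were not analysed here. The 37 genes fell in 17 imprinted clusters or single loci, 20 of them expressed from the paternal copy, 16 from the maternal copy and 1, Gnas, in a pattern that depends on transcript and tissue. The list was drawn up with the difference between these libraries in view, so its values are a description and no test is given.

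The data were RNA sequencing of 2 libraries from primary chondrocytes of the C57Bl/6 strain, grown as micromass cultures, in which cells plated at high density form cartilage-like nodules. One culture was transduced with Cre-recombinase adenovirus, which delivers an enzyme that cuts out DNA between loxP sites, and is labelled hdac3-knockout. Hdac3 encodes a histone deacetylase of nuclear corepressor complexes. The other was transduced with GFP control adenovirus and is labelled wild-type. Each group held 1 library, and the number of animals or dishes behind it is not given in the labels, which also name no floxed Hdac3 allele. Therefore no replicate error, counting error or depth can be given.

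Values are deposited log2 normalised counts, and all differences are Cre minus GFP on that log2 scale. Hdac3 itself stood at 10.68 in Cre and 10.69 in GFP, so its total gave no sign of a deletion, and Cre and GFP stand here for the libraries with those labels. Chondrocyte markers were present in both libraries, with Col2a1, the main cartilage collagen, at 19.97 and 20.35. Of 13 chondrocyte markers compared, 12 were below 0, with a median of -0.55, and their summed linear value in Cre was 0.730 times that in GFP. Macrophage and osteoclast markers had 12 of 14 above 0 and a summed value 1.47 times higher in Cre. Adipocyte markers had a summed value 1.01 times and fibroblast and perichondrial markers 0.993 times that in GFP. For skeletal muscle, endothelial, neuronal and glial, and osteoblast markers the sums were 1.29, 1.05, 0.707 and 0.835 times. The neuronal and glial sum rests on 3 genes. In these bulk cultures, fewer cells of a type and less RNA per cell cannot be told apart, and the part of cell make-up in the differences of the imprinted genes was not tested.

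As background, imprinting rests on DNA methylation that is set differently in egg and sperm at control regions and is kept through later divisions. A control region can act on several neighbouring genes of a cluster, some expressed from the paternal copy and others from the maternal copy. Many imprinted genes act on fetal growth, are strongly expressed in embryonic mesoderm and decline after birth, and several regulate the exit of progenitor cells from the cell cycle. In cartilage, the cell cycle inhibitor encoded by Cdkn1c is needed for the orderly differentiation of growth plate chondrocytes. Counts per gene add both parental copies together, so these values do not show which copy was expressed.

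Most imprinted genes were lower in the library labelled Cre. Of the 37 genes, 28 lay below 0 and 9 above, where 50.1% of all 12809 genes compared lay below 0 and 49.9% above, and with summed values made equal after leaving out Rn45s and Lars2, 26 lay below 0, beside 45.3% of all genes. Zim1, Peg10, Cdkn1c and Peg3 were at least 1.5-fold lower, a size reached by 0.952% of all genes. None of the 37 was 1.5-fold higher, where 2.25% of all genes were. At a smaller size, 0.32 or more on the log2 scale, 11 were lower, against 4.36% of all genes, and none was higher, against 6.02%. No member reached 2-fold, where 0.0703% of all genes were lower and 0.734% higher. The median difference was -0.22, with quartiles of -0.33 and -0.0078, beside a median of -0.00041 over all genes. The range ran from -0.97 for Zim1 to 0.09 for H13. Because the list was made with this contrast in view, these counts carry no weight beyond description.

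**Figure D1:**
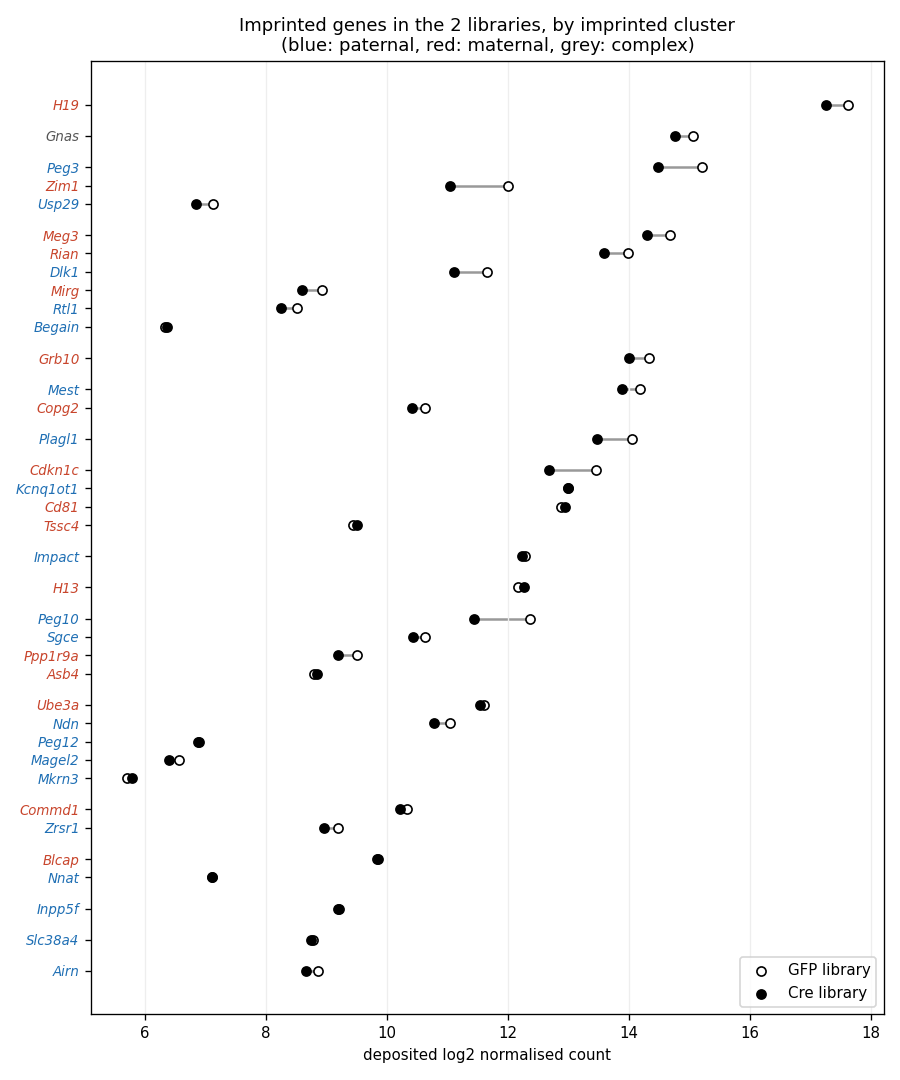
Deposited log2 normalised counts (horizontal axis) of the 37 imprinted genes in the Cre (filled) and GFP (open) libraries, 1 each, grouped by cluster, with names in blue for paternal, red for maternal and grey for complex expression. The widest gaps are those of Zim1, Peg10, Cdkn1c and Peg3, and in each the filled point lies to the left.

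The zinc finger genes Zim1, Peg3 and Plagl1 were among the lowest members. Zim1, a maternally expressed Krüppel-type zinc finger gene on chromosome 7 (6671269 to 6696450, minus strand, GRCm38), had 11.04 in Cre and 12.01 in GFP. It was 1.96-fold higher in GFP, and only 11 of the 12809 genes had a lower difference. Peg3, its paternally expressed neighbour (6703892 to 6730431, minus strand), encodes a zinc finger protein that represses transcription and acts in p53 and TNF signalling. Peg3 had 14.48 in Cre and 15.22 in GFP, a 1.66-fold difference. Plagl1 (chromosome 10, 13060504 to 13131694, plus strand) encodes a zinc finger transcription factor that restrains proliferation and binds at other imprinted genes. It had 13.47 in Cre and 14.05 in GFP, a difference of -0.58 that lay just short of 1.5-fold. All 3 were therefore lower in the library labelled Cre, each at a mean above 11 on the log2 scale. Usp29, a ubiquitin peptidase gene that starts beside Peg3 and runs the other way (6730578 to 6967219), had 6.85 in Cre and 7.14 in GFP, a difference of -0.29.

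Start regions are shown for the members with the lowest differences that had an entry in the RefSeq promoter table (GRCm38.p6), and for Kcnq1ot1, whose values were close together. Each is printed 5′ to 3′ on the strand of its gene, with exons of the GENCODE annotation left out and every CpG, the site of the methylation that marks imprints, in capitals. They lie at chr7:6696451-6696682 (minus strand), chr7:6730432-6730577 (minus strand, the stretch between the starts of Peg3 and Usp29), chr10:13090582-13090690 (plus strand), chr12:109452573-109452822 (plus strand) and chr7:143296550-143296797 (minus strand).
Zim1: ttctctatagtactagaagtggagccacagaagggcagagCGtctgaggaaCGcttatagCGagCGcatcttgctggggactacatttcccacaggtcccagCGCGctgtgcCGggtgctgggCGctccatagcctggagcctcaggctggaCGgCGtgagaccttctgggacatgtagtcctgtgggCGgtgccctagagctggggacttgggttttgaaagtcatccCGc
Peg3: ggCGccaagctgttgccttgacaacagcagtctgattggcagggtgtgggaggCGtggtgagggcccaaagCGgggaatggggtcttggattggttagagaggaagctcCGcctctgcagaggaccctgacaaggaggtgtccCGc
Plagl1: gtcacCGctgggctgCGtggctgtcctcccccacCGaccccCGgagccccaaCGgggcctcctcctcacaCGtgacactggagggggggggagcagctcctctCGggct
Dlk1: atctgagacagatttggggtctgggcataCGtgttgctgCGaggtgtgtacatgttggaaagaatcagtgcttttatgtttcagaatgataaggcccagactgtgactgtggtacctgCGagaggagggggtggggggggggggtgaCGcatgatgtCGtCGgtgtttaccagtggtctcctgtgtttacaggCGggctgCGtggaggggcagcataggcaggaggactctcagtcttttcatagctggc
Kcnq1ot1: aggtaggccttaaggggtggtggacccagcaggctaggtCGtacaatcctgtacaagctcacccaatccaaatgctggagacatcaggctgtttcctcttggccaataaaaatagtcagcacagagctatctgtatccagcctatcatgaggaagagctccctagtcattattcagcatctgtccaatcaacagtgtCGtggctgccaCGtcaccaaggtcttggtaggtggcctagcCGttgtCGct
These stretches held 12 CpGs in 232 bases at Zim1, 5 in 146 at Peg3, 7 in 109 at Plagl1, 8 in 250 at Dlk1 and 5 in 248 at Kcnq1ot1.

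Windows of 300 bases, from 250 before to 50 after each start, were found for 31 of the 37 genes, as 47 windows, of which several of 1 gene overlap. Cdkn1c, H19, Impact, Peg10, Rtl1 and Sgce had no entry. The member windows held a median of 17 CpGs, from 0 at Rian to 48 at Ppp1r9a, against a median of 7 in all 32851 windows of the table, and their median GC content was 58.3% against 52.7%. The core motif of YY1, a factor known to bind at the Peg3 control region, was searched as GCCATNTT and its reverse complement AANATGGC. It was in 3 of 47 member windows, those of Mkrn3, Slc38a4 and Ube3a, or 6.38%, and in 6.05% of all windows. The hexamer recognised by the imprint-protecting factor ZFP57, searched as TGCCGC and GCGGCA, was in 9 of 47, or 19.1%, and in 11.6% of all windows. Zim1, Plagl1, Mest, Meg3, Grb10, Nnat, Copg2 and Commd1 each had a window with it. The YY1 and ZFP57 motifs can share bases at their ends, and a match describes letters and not binding. The ZFP57 hexamer holds a CpG, and the windows were not matched for CpG content. Member windows came only from genes that passed the minimum, whereas all windows covered 27025 genes whether or not they were expressed here. Genes with several windows counted several times, so these shares and medians compare unlike sets. Only these windows at gene starts were searched, so control regions that lie elsewhere were not covered.

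Both retrotransposon-derived genes were lower in Cre by different amounts. Peg10 (chromosome 6, 4747306 to 4760517, plus strand), a paternally expressed gene with a gag and pol reading frame of retroviral origin that the placenta needs, had 11.44 in Cre and 12.37 in GFP. This was a 1.91-fold difference. Rtl1 (chromosome 12, 109589193 to 109600330, minus strand), a related paternally expressed gene of placenta and fetal muscle, had 8.25 in Cre and 8.53 in GFP, a difference of -0.27. Whether counting used strand is not given in the sources used here, so reads of Rtl1 cannot be told apart from those of the maternal transcript that runs against it. Sgce (4674350 to 4747207, minus strand), which encodes epsilon-sarcoglycan and starts head to head with Peg10 under the same control region, had 10.43 in Cre and 10.63 in GFP. Its difference of -0.20 was smaller in size than the -0.94 of Peg10.

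Of Cdkn1c, Dlk1, Grb10 and Gnas, which act on cell division or growth signalling, only Cdkn1c was 1.5-fold lower in Cre. Cdkn1c (chromosome 7, 143458339 to 143461050, minus strand), the maternally expressed gene of the cyclin-dependent kinase inhibitor p57, had 12.68 in Cre and 13.47 in GFP. This was a 1.73-fold difference, and 43 genes of 12809 had a lower one. Dlk1 (chromosome 12, 109452823 to 109463336, plus strand), a paternally expressed gene for a transmembrane protein related to Notch ligands that holds back adipocyte differentiation, had 11.12 in Cre and 11.65 in GFP, a 1.45-fold difference. Grb10 (chromosome 11, 11930508 to 12038683, minus strand), whose adaptor protein restrains insulin and IGF1 receptor signalling, had 14.01 in Cre and 14.34 in GFP, a difference of -0.33. Gnas (chromosome 2, 174284320 to 174346744, plus strand), which encodes the stimulatory G protein subunit downstream of the PTHrP receptor, had 14.77 in Cre and 15.07 in GFP, a difference of -0.30. Gnas counts add several transcripts with different imprints and may hold reads of Nespas, which overlaps it on the other strand. The other three lay below 0 without reaching 1.5-fold.

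Of the 6 long noncoding RNA members, 4 were lower in Cre by 0.32 or more and none by 1.5-fold, against 4.36% and 0.952% of all genes. At a mean of 13 or more, where H19, Meg3 and Rian lie, 10.4% of all genes were lower by 0.32 or more. H19 (chromosome 7, 142575529 to 142578143, minus strand), a maternally expressed RNA of fetal mesoderm and endoderm that competes with Igf2 for enhancers, had 17.26 in Cre and 17.62 in GFP, a difference of -0.36. Meg3 (chromosome 12, 109541001 to 109571726, plus strand), Rian (109603940 to 109661716) and Mirg (109729764 to 109749460) lie in a row on the plus strand and are expressed from the maternal copy. Meg3 had 14.31 in Cre and 14.69 in GFP. Rian, a host of small nucleolar RNAs, had 13.59 and 14.00. Mirg, a host of microRNAs, had 8.60 and 8.93. The differences of these neighbours were alike, at -0.38, -0.41 and -0.33, although their values differed widely. Airn (chromosome 17, 12741311 to 12860136, plus strand), the paternal RNA that silences Igf2r, had 8.66 in Cre and 8.86 in GFP, a difference of -0.20. Kcnq1ot1 (chromosome 7, 143203458 to 143296549, minus strand), the paternal RNA that silences genes of its domain, had 12.9917 in Cre and 12.9996 in GFP, and its difference of -0.0078 turned to 0.0069 with summed values made equal after leaving out Rn45s and Lars2. Both Airn and Kcnq1ot1 overlap a gene on the other strand, Igf2r and Kcnq1, whose reads may be mixed in.

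Several of these members hold microRNA genes, which an mRNA library does not measure in mature form. The sequences show which microRNAs lie in the members that were lower, with the seed (bases 2 to 8) in capitals, from RefSeq on GRCm38.p6. Mir675 lies in H19, Mir335 in Mest, Mir770 in Meg3, Mir410 in Mirg, and Mir127 opposite Rtl1.
miR-675-5p: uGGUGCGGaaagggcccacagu
miR-675-3p: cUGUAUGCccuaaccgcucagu
miR-335-5p: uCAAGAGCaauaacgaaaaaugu
miR-770-5p: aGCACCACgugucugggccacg
miR-127-3p: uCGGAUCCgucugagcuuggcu
miR-410-3p: aAUAUAACacagauggccugu
The 6 seeds all differ. Mirg held 14 hairpins on its own strand, Rian 3 and Meg3 1, and 7 hairpins lay within Rtl1, of which 1 was on the strand of Rtl1.

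Members with other roles ran from -0.31 for Ppp1r9a to 0.07 for Cd81. Mest (chromosome 6, 30723547 to 30748465, plus strand), a paternally expressed hydrolase-like gene of mesoderm, had 13.89 in Cre and 14.19 in GFP, a difference of -0.30. Copg2, a coatomer subunit gene whose end overlaps that of Mest on the other strand, had 10.41 and 10.63, a difference of -0.22. Ppp1r9a, which encodes the actin-binding protein neurabin, had 9.20 in Cre and 9.51 in GFP, a difference of -0.31. These genes again lay below 0, each by less than 0.32. Asb4, a ubiquitin ligase adaptor gene, had 8.85 in Cre and 8.80 in GFP. The tetraspanin gene Cd81 had 12.94 and 12.88, and Tssc4, which acts in the assembly of spliceosomal particles, 9.51 and 9.44. The amino acid transporter gene Slc38a4 had 8.75 in Cre and 8.78 in GFP, and the inositol phosphatase gene Inpp5f 9.20 and 9.21. The sign of Inpp5f turned, from -0.013 to 0.0013, with summed values made equal after leaving out Rn45s and Lars2. The differences of Asb4, Cd81, Tssc4, Slc38a4 and Inpp5f were thus within 0.07 of 0.

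Genes of the Snrpn to Ube3a region, which is lost in Prader-Willi and Angelman syndromes, ran from -0.27 for Ndn to 0.08 for Mkrn3. Ndn (chromosome 7, 62346569 to 62350262, plus strand), which encodes the MAGE family protein necdin that restrains proliferation, had 10.78 in Cre and 11.05 in GFP, a difference of -0.27. Magel2, a related gene, had 6.41 in Cre and 6.57 in GFP, a difference of -0.16. Mkrn3, a makorin gene whose loss brings early puberty, had 5.79 and 5.71, and Peg12, of the FRAT family of Wnt regulators, 6.91 and 6.88. The ubiquitin ligase gene Ube3a, which is imprinted in neurons, had 11.55 in Cre and 11.61 in GFP. Ndn alone in this region differed by more than 0.2.

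Genes that lie within a host gene were compared with that host in pairs. Zrsr1, a paternally expressed retrogene of a splicing factor, had 8.97 in Cre and 9.19 in GFP, and its host Commd1, a copper and NF-kappaB regulator, 10.21 and 10.34. Their differences were -0.23 and -0.13. Nnat, a paternally expressed proteolipid gene, had 7.11 in both libraries, and its host Blcap had 9.86 in Cre and 9.84 in GFP. Neither Nnat nor Blcap differed by more than 0.02. H13, which encodes signal peptide peptidase and holds the retrogene Mcts2, had 12.27 in Cre and 12.18 in GFP, the highest difference of all members at 0.09. Mcts2, which is not a member and was named after its value was seen, had 8.12 in Cre and 8.09 in GFP. Impact, a paternally expressed inhibitor of the kinase GCN2, had 12.23 and 12.29. Slc22a18, a transporter gene below the minimum, had 5.26 in Cre and 5.30 in GFP.

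By cluster, the lowest values lay in the Peg3 domain. Its 3 members were all below 0, with a median of -0.73. In the Dlk1-Dio3 domain, 5 of 6 were below 0, with a median of -0.35, and Begain, a synaptic scaffold gene at the far end of the cluster, had 6.37 in Cre and 6.34 in GFP. In the Peg10-Sgce cluster, 3 of 4 were below 0, with a median of -0.25. Other imprinted genes there, not members and named after their values were seen, did not share that direction. Pon3 and Pon2, within the cluster, were at 0.17 and 0.20, and Casd1, beside it, at -0.0080. In the Kcnq1 domain, 2 of 4 were below 0, with a median of 0.03 that became -0.17 as a mean, since Cdkn1c at -0.79 stood apart from Cd81, Tssc4 and Kcnq1ot1. In the Snrpn-Ube3a domain, 3 of 5 were below 0, with a median of -0.06. Genes of 1 cluster are neighbours under shared control regions and are not independent of each other.

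**Figure D2:**
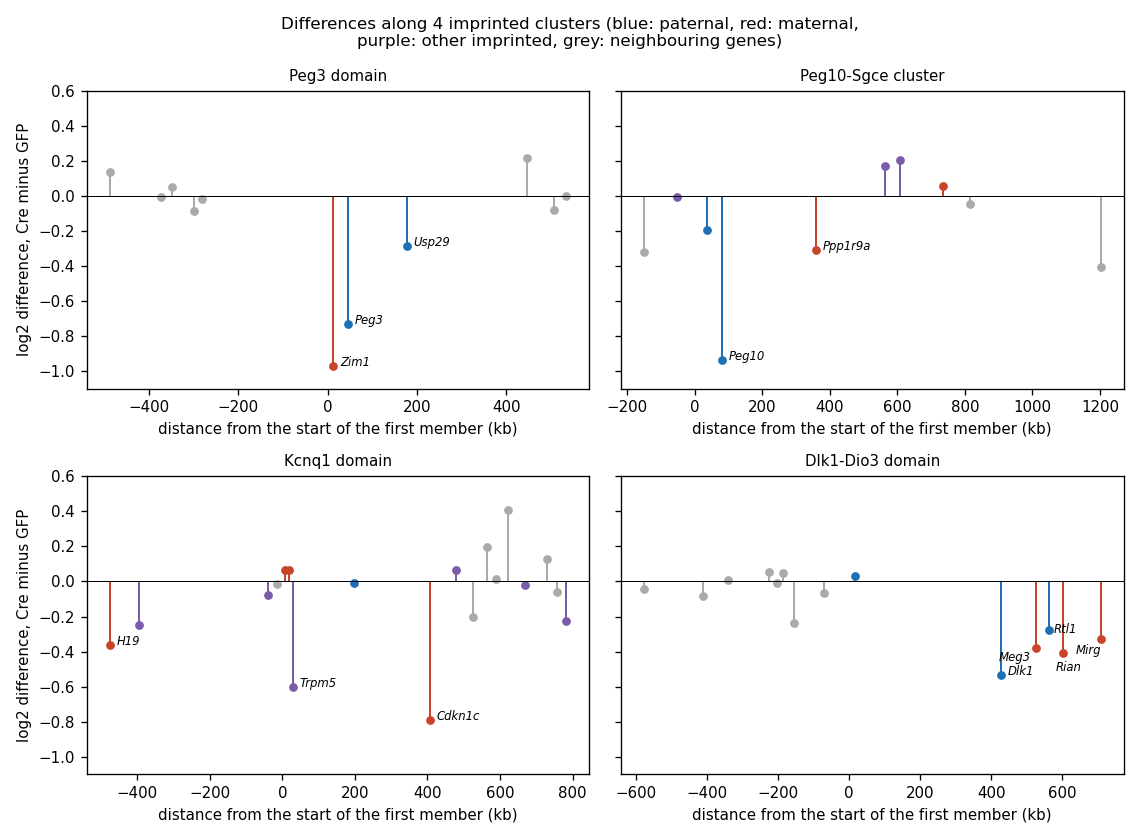
Log2 difference, Cre minus GFP (vertical axis), of genes along 4 imprinted clusters against the distance of the gene's midpoint from the start of the first member in kb (horizontal axis), with members in blue (paternal) or red (maternal), other imprinted genes in purple and neighbouring genes in grey. Zim1 (-0.97) and Peg3 (-0.73) stand out from the grey genes on either side, and Cdkn1c (-0.79) stands apart from the other members of the Kcnq1 domain. The grey genes around Zim1 and Peg3 have lower means, from 6.33 to 8.53, against 11.53 for Zim1 and 14.85 for Peg3. Trpm5, an imprinted gene of that domain that is not a member, is at -0.60.

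Paternally and maternally expressed members each had a median below 0. Among the 20 paternal members, 16 lay below 0, 4 by 0.32 or more and 2 by 1.5-fold or more, where 50.1%, 4.36% and 0.952% of all genes did, and the median was -0.20. Among the 16 maternal members, 11 lay below 0, 7 by 0.32 or more and 2 by 1.5-fold or more, beside the same shares of all genes, and the median was -0.26. With summed values made equal after leaving out Rn45s and Lars2, the medians were -0.18 and -0.25. The opposite parental types shared a direction in the Peg3 domain, where paternal Peg3 and maternal Zim1 were both lower, and in the Dlk1-Dio3 domain, where paternal Dlk1 and maternal Meg3 were, although paternal Begain there was at 0.03. In the Peg10-Sgce cluster, paternal Peg10 (-0.94) and Sgce (-0.20) and maternal Ppp1r9a (-0.31) were lower, but maternal Asb4 was at 0.05. The parental types did not share a direction in the Kcnq1 domain. There maternal Cdkn1c was at -0.79, but maternal Cd81 and Tssc4 lay above 0. Paternal Kcnq1ot1 was at -0.0078 (0.0069 under the scaling given above). For 12 of the listed genes imprinting is known only in some tissues or isoforms, and these had a median of -0.04. None of the 12 differed by 0.32 or more, where 4.36% of all genes were lower and 6.02% higher by that size. The other 25 genes had a median of -0.27. The difference between these medians was not tested, since each group held 1 library.

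**Figure D3:**
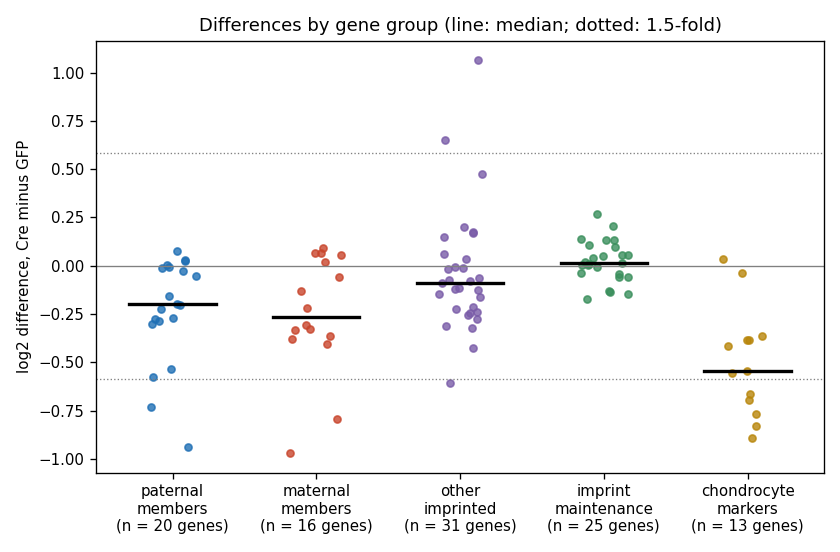
Log2 difference, Cre minus GFP (vertical axis), of single genes in 5 groups, with a bar at each median and dotted lines at 1.5-fold in either direction. The medians were -0.20 for paternal and -0.26 for maternal members, -0.09 for other imprinted genes, 0.02 for imprint maintenance factors and -0.55 for chondrocyte markers.

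Differences of the imprinted genes were set beside those of all genes of like abundance. Among the 9 members with a mean of 13 or more on the log2 scale, all 9 lay below 0, 7 of them by 0.32 or more, and the median was -0.38. In that range 66.7% of all 520 genes lay below 0 and 10.4% by 0.32 or more. Among the 8 members from 11 to 13, 6 lay below 0 and 3 by 0.32 or more, against 55.4% and 5.25% of all 2665 genes, and the median was -0.06. Of the 9 members from 9 to 11, 7 lay below 0 and none by 0.32, against 47.1% and 3.45% of all 5069 genes, with a median of -0.20. Among the 6 from 7 to 9, 4 lay below 0 and 1, Mirg, by 0.32 or more, against 48.5% and 4.89%, with a median of -0.12. Of the 5 members under 7, 2 lay below 0 and none by 0.32, against 48.4% and 2.38%, with a median of 0.02. The medians thus did not follow abundance in order, since that from 11 to 13 was nearer to 0 than those from 7 to 9 and from 9 to 11. However, the range from 11 to 13 held the lowest members, Zim1 (-0.97) and Peg10 (-0.94). Of the 11 members lower by 0.32 or more, 7 had a mean of 13 or more. The part of abundance in these differences was not tested. No gene of any kind under 7 reached 2-fold in either direction.

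**Figure D4:**
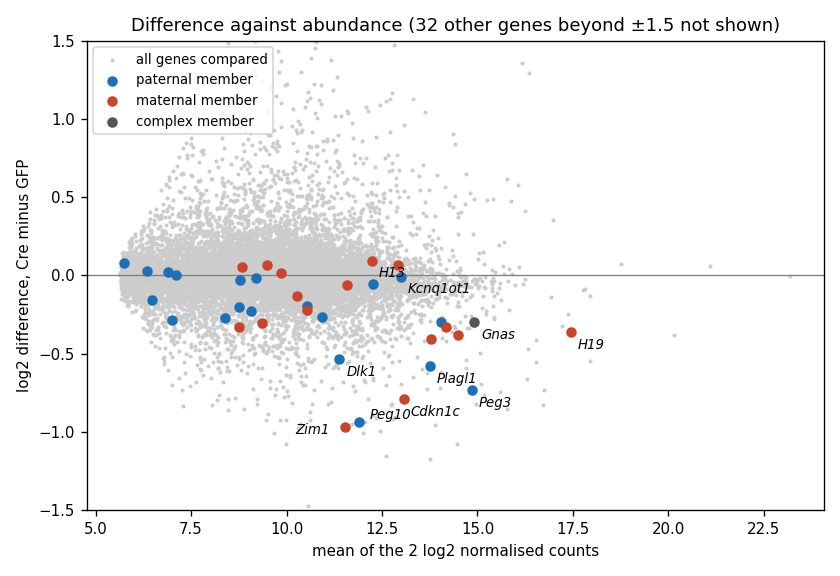
Log2 difference, Cre minus GFP (vertical axis), against the mean of the 2 log2 normalised counts (horizontal axis), for all genes compared (grey) and the 37 imprinted genes (blue paternal, red maternal, dark grey complex), with 32 other genes beyond 1.5 in either direction outside the frame. All 9 members at 13 or more lie below 0, while the 5 under 7 run from -0.29 (Usp29) to 0.08 (Mkrn3).

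Levels between members can be compared only per length. Per kb of annotated exon, on the linear scale, H19 had 82073 normalised counts in GFP and 63773 in Cre, above all other members in both libraries. In GFP, Cdkn1c followed with 5558 per kb and Mest with 4751 per kb, while in Cre Mest, at 3861 per kb, stood above Cdkn1c, at 3210 per kb. Peg3 had 2859 per kb in GFP and 1720 per kb in Cre. The lowest was Usp29, at 7.78 per kb in GFP and 6.38 per kb in Cre. Exons of all isoforms were joined for these lengths, so genes with long rare isoforms are placed too low.

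Other imprinted genes, from a list of 46 of which 31 were compared, lay on both sides of 0. Of these, 22 were below 0, with a median of -0.09. Trpm5, a cation channel gene of the Kcnq1 domain, was 1.52-fold higher in GFP, at 6.60 in Cre and 7.21 in GFP. Tssc4 lies within Trpm5 on the other strand, so reads of these genes may be mixed. Ampd3, an AMP deaminase gene imprinted in placenta, was 2.09-fold higher in Cre, at 10.71 against 9.65, and the serotonin receptor gene Htr2a 1.57-fold, at 7.56 against 6.91. Partners of the members were named after their values were seen. Igf2, the paternally expressed growth factor gene beside H19, had 17.25 in Cre and 17.50 in GFP, a difference of -0.25. Igf2r, the maternal partner of Airn, had 14.24 and 14.36, a difference of -0.12.

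Genes that set or protect imprints were close to 0. Of 25 compared from a list of 27, 9 lay below 0 and 16 above, with a median of 0.02 and none at 0.32 or more in either direction. The largest differences were 0.27 for Hells, a chromatin remodeller of DNA methylation, 0.21 for the methylcytosine oxidase gene Tet2, -0.17 for the DNA methyltransferase gene Dnmt3b and -0.15 for Tet3.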

How the data were processed

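Per the labels' protocols, TRIzol RNA went into Illumina TruSeq v2 mRNA libraries. Tool names in the submitters' processing notes are TopHat2 2.0.6, HTSeq and bcl2fastq 1.8.4, with build mm10. The annotation was not given in the sources used here, nor were the strand setting and the handling of multiply aligned reads. The authors deposited log2 normalised counts, 1 column per library, with their mean and their difference, which equals GFP minus Cre in all 13138 rows to within 1e-06. The difference is headed rLogFC, and a regularised log, which shrinks differences of less abundant genes, is inferred from that heading and not stated. Depth is unknown.

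Python 3.11.15 with pandas 2.3.3 was used to take differences, counts and medians over genes whose mean reached 50 on the linear scale. With 1 library per group no test was run. The calling function was tested on simulated data. Genes were called by size at 1.5-fold, with 0.32 on the log2 scale and 2-fold as alternatives. Scalings, minimums, means in place of medians and the removal of genes with restricted imprinting were tried. Members, lists and alternatives were chosen with earlier results of these data known. Every member present was named. From the lists of other imprinted genes and imprint maintenance factors, genes past 1.5-fold were named or else the 4 largest differences, and from the neighbours of clusters the highest and lowest. Clusters, parental copy and roles are general knowledge. Coordinates are from GENCODE release M21 on GRCm38, the same assembly as mm10, matched by symbol and chromosome.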

Additional observations from a re-analysis of the deposited data

How the results depend on the processing

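The count of members at least 1.5-fold lower in Cre was 4 with no minimum, with one 10 times higher and under all 3 scalings, and depended on the threshold, with 11 at 0.32 on the log2 scale and 0 at 2-fold. No member was at least 1.5-fold higher with any of these minimums or scalings, and none was higher by 0.32 on the log2 scale or by 2-fold. Of 26 alternative medians and means, 24 stayed within 0.1 of the main value with its sign. The exceptions were the maternal median, which was -0.37 over 8 genes once those with restricted imprinting were left out, and the Kcnq1 domain, whose median of 0.03 became a mean of -0.17 through Cdkn1c. The signs of Kcnq1ot1 and Inpp5f turned under 1 scaling and those of the other 35 members under none. Low values limit what can be seen under 7 on the log2 scale, where the SD of the difference over all genes was 0.15, against 0.23 from 7 to 9. No paired analysis was possible because there is 1 library in each group.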

Other observations

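Genes that lie in or beside the imprinted clusters and are on neither list of imprinted genes were also described. Absence from the lists does not show that a gene is not imprinted. Within 500 kb of the 5 clusters with at least 3 measured members, 27 such genes were compared. Of these, 16 lay below 0, with a median of -0.01, and none was 1.5-fold lower or higher. Around the Peg3 domain, 8 genes, all of zinc finger families, ranged from -0.09 for Zfp78 to 0.21 for Zfp954, while Zim1 and Peg3 between them were at -0.97 and -0.73. These 8 genes were not of like abundance, with means from 6.33 for Zfp418 to 8.53 for Zfp28, against 11.53 for Zim1 and 14.85 for Peg3. Usp29, the member of that domain with a low mean, 6.99, was at -0.29. Beside the Dlk1-Dio3 domain, 8 genes ranged from -0.24 for Wars, a tRNA synthetase gene, to 0.05 for Yy1. Around the Peg10-Sgce cluster the 3 genes were all below 0, from -0.40 for Dync1i1, a dynein chain gene, to -0.05 for Pdk4, and they included the collagen gene Col1a2, named after its value was seen, at -0.32. At the Kcnq1 domain, 7 genes ranged from -0.20 for Cars to 0.41 for Tnfrsf23, a decoy receptor gene. The single neighbour in the Snrpn-Ube3a domain, A330076H08Rik, was at -0.14.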
